A study of Caenorhabditis elegans with 2 samples.

Results

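Small nucleolar RNA (snoRNA) genes that lie inside protein-coding genes were examined for the binding of RNA polymerase III (Pol III) in Caenorhabditis elegans, through its largest and catalytic subunit RPC-1. A snoRNA gene was taken as hosted when its whole annotated body fell within the span of a nuclear protein-coding gene, on either strand, in the RefSeq annotation of WBcel235. Of 346 annotated nuclear snoRNA genes, 213 met this rule and 133 lay outside protein-coding genes. The measurement was chromatin immunoprecipitation with sequencing (ChIP-seq) on whole young adults, males and females pooled, of strain YL517, a transgenic line with a GFP-FLAG tag fused to the C terminus of RPC-1. The worms came as 1 group of 2 libraries, biological replicates 1 and 2, and sonication was used to shear the chromatin. The age in hours or days, the promoter that drives the tagged protein and the presence of untagged RPC-1 were not stated by the labels, and there was no second condition, so nothing was compared between treatments. Since whole animals were used, the tissue in which a gene was bound cannot be told.

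The snoRNAs guide chemical modification of ribosomal and spliceosomal RNAs. Box C/D snoRNAs direct 2′-O-methylation and box H/ACA snoRNAs direct the conversion of uridine to pseudouridine. In animals many snoRNAs are encoded in introns and are released from the spliced host intron, so that they are made by RNA polymerase II together with the host mRNA. Others are transcribed from a promoter of their own. Pol III starts many genes from internal promoters: in a tRNA gene the A box and the B box lie within the transcribed sequence and are bound by TFIIIC, and a run of T residues ends transcription. A second kind of Pol III promoter, best known from the vertebrate U6 spliceosomal RNA gene, lies upstream of the start and combines a proximal element with a TATA box.

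The peak lists give each peak a summit and a signal value, a score from the authors' peak caller that has meaning only within its own list. The optimal list, which the authors built from the peaks that ranked alike in both replicates, held 2123 peaks with signal values from 59.97 to 9672 and a median of 355. A pooled list of 24907 peaks and the lists of replicate 1 (26455 peaks) and replicate 2 (27629 peaks) reach far lower signal values. A snoRNA gene was counted as bound where a summit of the optimal list lay within 100 bp of its body, and its signal value was that of the highest such summit. The offset of a summit was measured from the first base of the snoRNA in the direction of its transcription, with negative values upstream. Read depth is unknown for these values.

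The sequences just before the bound snoRNA genes carried the plainest pattern, and 6 are shown because their genes hold an exact A box and B box in front of the snoRNA. Each runs from 110 bases before the snoRNA start to the first 10 bases of the snoRNA, from the RefSeq genome sequence on ce11, with the A box and then the B box in capitals. They belong to C51F7.3 (chrV:12303598-12303717, plus strand), C04G6.12 (chrII:5105222-5105341, minus), T03F7.8 (chrV:11314148-11314267, plus), F55A11.10 (chrV:11782882-11783001, plus), F11A10.9 (chrIV:12086599-12086718, plus) and, named after its values were seen, M106.6 (chrII:10840207-10840326, plus).
C51F7.3: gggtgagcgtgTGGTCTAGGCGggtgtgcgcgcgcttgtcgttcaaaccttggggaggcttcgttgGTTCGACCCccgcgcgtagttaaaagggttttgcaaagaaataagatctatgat
C04G6.12: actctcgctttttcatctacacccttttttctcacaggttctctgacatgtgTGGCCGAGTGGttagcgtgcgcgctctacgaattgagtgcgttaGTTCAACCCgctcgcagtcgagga
T03F7.8: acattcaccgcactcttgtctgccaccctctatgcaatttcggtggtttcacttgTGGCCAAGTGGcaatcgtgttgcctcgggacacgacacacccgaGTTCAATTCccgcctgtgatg
F55A11.10: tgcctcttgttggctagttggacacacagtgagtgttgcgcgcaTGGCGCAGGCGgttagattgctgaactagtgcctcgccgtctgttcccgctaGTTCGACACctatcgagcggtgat
F11A10.9: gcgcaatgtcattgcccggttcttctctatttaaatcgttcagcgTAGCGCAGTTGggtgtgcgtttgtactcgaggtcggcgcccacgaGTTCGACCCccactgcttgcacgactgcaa
M106.6: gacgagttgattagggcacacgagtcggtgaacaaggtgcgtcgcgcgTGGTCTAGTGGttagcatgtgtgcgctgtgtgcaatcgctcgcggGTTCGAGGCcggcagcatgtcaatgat

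The boxes of a tRNA gene stood here in the last bases before the snoRNA rather than inside it. T03F7.8 (chrV:11314258-11314342, plus strand, with 10 bases after the gene end) shows what follows. Its sequence has, in capitals, a TGATG stretch of the C box near the 5′ end, a CTGA stretch of the D box near the 3′ end, and the run of T residues just after the gene.
T03F7.8: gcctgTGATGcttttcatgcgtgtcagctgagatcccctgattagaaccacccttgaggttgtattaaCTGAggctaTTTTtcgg

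A second, smaller group carried another upstream motif, shown for 4 hosted snoRNA genes together with an snRNA gene that shares it. The motif is AACNCG, then any 5 bases, then TGTC, and is in capitals, as is TATAA where it follows within 40 bases. The hosted genes are ZK994.7 (chrV:8500469-8500588, plus strand), T06D8.11 (chrII:11224072-11224191, plus, named after its value was seen), K02C4.7 (chrII:8091599-8091718, plus) and C07A9.14 (chrIII:9717270-9717389, plus), and the snRNA gene is T08B6.62 (chrIV:4885640-4885759, minus).
ZK994.7: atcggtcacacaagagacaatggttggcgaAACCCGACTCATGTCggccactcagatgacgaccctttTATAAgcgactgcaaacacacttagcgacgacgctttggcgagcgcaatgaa
T06D8.11: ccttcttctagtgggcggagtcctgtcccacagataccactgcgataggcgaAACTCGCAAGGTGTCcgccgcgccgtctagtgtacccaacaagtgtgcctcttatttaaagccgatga
K02C4.7: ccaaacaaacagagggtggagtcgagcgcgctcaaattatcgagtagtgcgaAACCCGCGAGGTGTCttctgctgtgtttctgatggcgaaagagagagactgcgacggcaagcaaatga
C07A9.14: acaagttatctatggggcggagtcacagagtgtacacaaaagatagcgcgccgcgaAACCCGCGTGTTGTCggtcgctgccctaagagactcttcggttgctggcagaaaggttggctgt
T08B6.62: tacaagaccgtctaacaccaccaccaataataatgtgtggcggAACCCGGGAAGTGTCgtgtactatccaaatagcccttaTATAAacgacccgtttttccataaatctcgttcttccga

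Other hosted snoRNA genes begin a short way into the intron. F54E7.10, in an intron of the ribosomal protein gene rps-12 and named after its values were seen (chrIII:5679337-5679387, plus strand), is shown with the last 10 bases of the exon and the first 10 of the snoRNA in capitals and the 31 intron bases between them in lower case.
F54E7.10: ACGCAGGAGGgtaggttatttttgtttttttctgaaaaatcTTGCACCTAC

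RPC-1 was bound at 51 of the 213 hosted snoRNA genes (23.9%). Over all 46890 annotated nuclear genes the share with an optimal summit within 100 bp was 4.27%, a set that mixes long protein-coding genes with very short ones. Outside protein-coding genes, 38 of 133 snoRNA genes (28.6%) were bound, at a median signal value of 4045. The 51 hosted genes had 50 distinct summits, since C51F7.3 and C51F7.4 lie next to each other and share the highest peak of the whole list. The signal values of bound hosted genes had a median of 2397 with quartiles of 264 and 4556. For scale, the 558 of 612 tRNA genes with such a summit had a median of 3073.

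The hosted genes fell into a high and a low range. Signal values exceeded 1000 at 36 genes and were under 300 at 14, with only JC8.15, at 696 and named after its value was seen, between those limits. Among the 10 highest peaks of the optimal list were 5 at hosted genes, namely the shared peak of C51F7.3 and C51F7.4 and those of ZK994.7, T04A8.17, C04G6.12 and ZK484.9. Of the 162 hosted genes without an optimal summit, 41 had a weaker summit in the pooled list, with a median signal value of 14.3, and 102 hosted genes had none in any of the 4 lists. In the pooled list 92 of 213 hosted genes (43.2%) had a summit, against 24.4% of all nuclear genes. In the replicate lists the counts were 91 (42.7%, against 25.7% of all nuclear genes) for replicate 1 and 82 (38.5%, against 27.4%) for replicate 2.

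The boxes were searched as GTTCGANNC or GTTCAANNC for the B box, on both strands, and as the standard A box of the tRNA promoter on the gene strand, from 150 bp before the snoRNA start to the gene end. A B box was present at 21 of the 51 bound hosted genes and at 12 of the 162 others. For comparison, a window of the same kind at protein-coding gene starts held a B box in 5.05% of 19971 cases, and the free-standing snoRNA genes held one in 25 of 133. The A box was present at 40 of 51 bound and 30 of 162 other hosted genes. A TTTT run within 50 bp after the gene end was present at 47 of 51 bound genes and 107 of 162 others, and its first copy began at a median of 6 bp after the end in the bound genes. TTTT is common, and 62.2% of protein-coding genes had it in the same window. A motif match is a description of sequence and does not show that a factor was bound.

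Box order and spacing separated the genes more sharply than either box alone. An A box upstream of the snoRNA followed on the same strand by a B box, 25 to 90 bp between their starts, was found at 17 hosted genes, and all 17 were bound. No hosted gene without an optimal summit had this pair. The pair was present at 11 of 133 free-standing snoRNA genes, again all bound, and at 14 of 19971 protein-coding starts (0.0701%). This arrangement was defined after the leaders of bound genes had been seen, so its counts describe these genes and test nothing.

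The pair was held at a near-constant place. The A box began 99 to 42 bp before the snoRNA, the median being 58 bp, and the B box 44 to 5 bp before it, with a median of 14 bp. The median spacing between box starts was 44 bp (quartiles 43 and 45 bp). The end of the B box was thus a median of 5 bp from the first base of the snoRNA. In Y38F2AR.14, C05D2.15 and R166.7 the B box ran across the annotated start, as the map of summits and motifs shows. The summit of these 17 genes lay 1 to 110 bp after the A box start. The median distance was 17 bp, between the A and B boxes, and the quartiles were 6 and 50 bp.

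**Figure D1:**
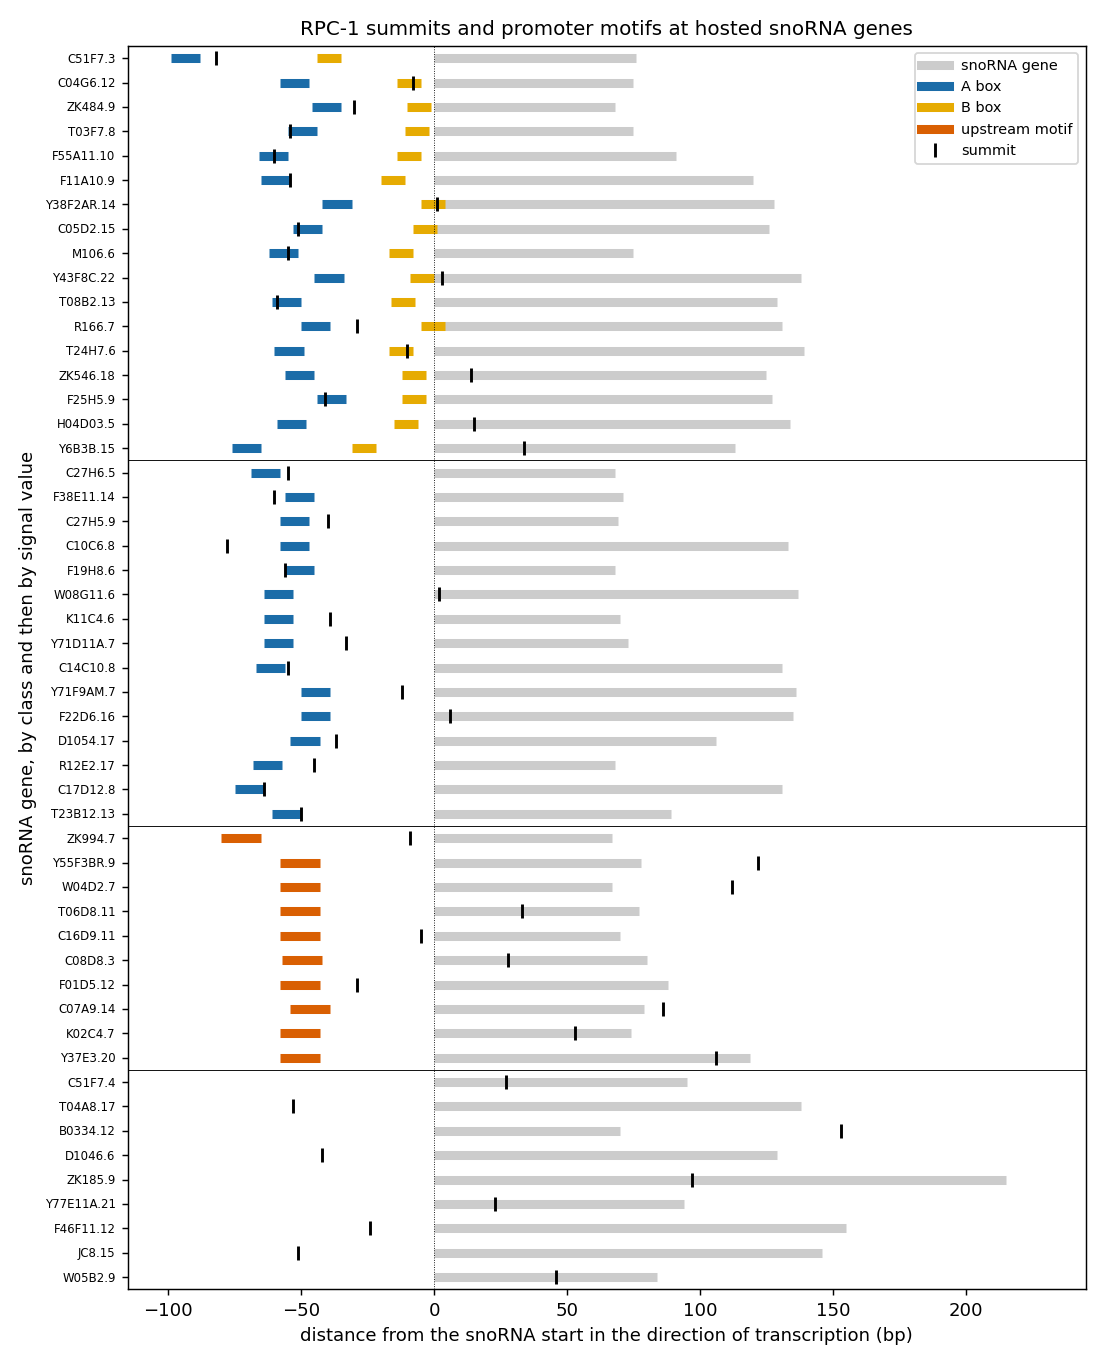
Each row is a hosted snoRNA gene with an optimal summit, 51 in all, and the x axis is the distance in bp from the snoRNA start in the direction of transcription. Grey bars are the snoRNA genes, coloured bars the motifs (blue A box, yellow B box, orange upstream motif) and black ticks the summits. Horizontal lines part the classes with an A and B box (17 genes), an A box only (15), the upstream motif (10) and none of these (9). The boxes and most summits of the upper classes lie before the start, while the summits of the orange class spread from 29 bp before the start to 122 bp after it.

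C51F7.3 and C51F7.4 shared the highest peak of the optimal list, with a signal value of 9672 in that list, 5660 in the replicate 1 list and 4034 in the replicate 2 list. C51F7.3 lies in intron 4 of frm-7, on the host strand, and the shared summit was 82 bp before it. C51F7.4 ends just upstream, on the same strand and in the same intron, apart from its first base, which is the last base of the coding exon before it. The shared summit fell 27 bp into the annotated body of C51F7.4, within the intron. The A and B boxes of the C51F7.3 leader begin inside C51F7.4, so the peak cannot be assigned to either gene from position alone.

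C04G6.12, on the strand opposite to its host mpk-2 (a MAP kinase gene), followed among genes with both boxes, at 7797 in the optimal list, 4639 in replicate 1 and 3165 in replicate 2. Its summit lay 8 bp before the snoRNA, inside the B box. ZK484.9, opposite to haf-9 (an ABC transporter gene), had 7528, 4516 and 3042 in the same order of lists. T03F7.8, opposite to cutl-18 (a cuticlin-like gene), had 6648, 3971 and 2696, and its summit was 54 bp before the start in all 3 lists. These 3 genes are transcribed against their hosts, and each was in the top 20 peaks of the optimal list.

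F55A11.10, on the strand of F55A11.6, had signal values of 5562, 3289 and 2280 in the optimal, replicate 1 and replicate 2 lists. F11A10.9, in intron 2 of rbm-34 (an RNA-binding protein gene) had 4172, 2475 and 1686. C05D2.15, in madf-11, had 3868, 2295 and 1576, and T08B2.13, in the phenylalanyl-tRNA synthetase gene fars-1, had 3177, 1784 and 1394. M106.6, in intron 13 of the condensin gene mix-1, had 3604, 2208 and 1425. All of these are read in the direction of the host, so that a host transcript and a snoRNA leader with its own boxes lie on the same strand. At the low end, H04D03.5, opposite to smrd-1, had 1131, 698 and 456, and Y6B3B.15, opposite to lagr-1, had 207, 135 and 68.1. Only 16.5% of the 36-base words in and around Y6B3B.15 were unique in the genome, the lowest share among the hosted genes, and the part of repeated sequence in its low value was not tested.

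An A box in the same upstream place without an exact B box was found at 17 further hosted genes, of which 15 were bound. Counted with the exact pairs in that place, 33 hosted genes had an A box starting 80 to 40 bp before the snoRNA, and 31 of them were bound. This place held an A box at 1.45% of protein-coding starts, and at 17 free-standing snoRNA genes, all bound. The exceptions, named after their values were seen, were Y111B2A.35 in ssl-1 and F55F1.11 in cgef-1, neither of which had a summit in any list. The signal values of the 15 bound genes had a median of 2862 and ranged from 118 to 6878.

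C27H6.5, in the synaptic gene unc-41, was the highest of these, with 6878 in the optimal list, 4114 in replicate 1 and 2780 in replicate 2. F38E11.14, in the cyclic nucleotide-gated channel gene cng-3, had 6591, 3946 and 2670. C27H5.9, opposite to pdl-1, had 5430, 3238 and 2202, and C10C6.8, in the P-type ATPase gene catp-8, had 4940, 2842 and 2111. F19H8.6, in mltn-9, had 4155, 2478 and 1690, and K11C4.6, in the spectrin gene unc-70, had 3545, 2082 and 1468. The lowest were C17D12.8, opposite to pcmd-1, with 128, 63.97 and 62.8, and R12E2.17, D1054.17 and T23B12.13, named after their values were seen, with 193.1, 199.4 and 118 in the optimal list. The class thus held both genes near the top of the list and 4 genes under 200.

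Most of these leaders hold a near match to the B box. When at most 1 mismatch was allowed over the A and B boxes together, with the A box 80 to 40 bp before the snoRNA and 30 to 60 bp between box starts, 30 hosted genes had the pair and 29 were bound. The exception was C06A1.8 in cdc-48.1, named after its value was seen, which begins 33 bp into its intron and had a signal value of 9.10 in the pooled list. The same search found the pair at 20 free-standing snoRNA genes, all bound, and at 0.180% of protein-coding starts. With 2 mismatches it took in 34 of 37 hosted genes but also 3.04% of protein-coding starts.

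The upstream motif was found within 150 bp before 18 hosted snoRNA genes, 17 free-standing ones, 30 of 129 snRNA genes and 11 of 19971 protein-coding starts (0.0551%). The genes annotated as snRNA include spliced leader RNA genes, and several with the motif are of that kind, such as sls-2.8. The motif was placed even more tightly than the boxes: in 16 of the 18 hosted genes it began 61 to 54 bp before the snoRNA, and the median was 58 bp. No hosted gene had both this motif and the exact box pair. The pair was present at 7.98% of all hosted genes, so with 18 motif genes a count of 0 says little. An optimal summit was present at 10 of the 18 hosted genes and a pooled summit at 15. Like the box pair, this motif was defined after the leaders had been seen.

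Signal values in this class were low. Of the 10 bound genes, 8 were under 300, and the median was 118, against 3604 for genes with both boxes. The free-standing snoRNA genes with the motif were also low, with 8 of 17 bound at signal values from 65.9 to 144. The 5 lowest hosted genes of the optimal list all belonged here: Y37E3.20 in pcyt-2.1 at 62.0, K02C4.7 opposite to ltd-1 at 72.5, C07A9.14 opposite to the sodium-calcium exchanger gene ncx-7 at 72.6, F01D5.12 in F01D5.10 at 79.1 and C08D8.3 in C08D8.1 at 105. The replicate lists gave Y37E3.20 signal values of 49.5 and 15.8, the widest relative gap among these genes, and K02C4.7 41.2 and 29.1. Summits in this class lay at a median of 43 bp after the snoRNA start. They lay before the start in 3 of the 10 genes and inside or past the short gene in the other 7, and none lay on the motif.

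Just below the limit of the optimal list the motif was again frequent. Of the 5 hosted genes with the highest pooled values among those without an optimal summit, 4 had it. They were F54F11.6 in sre-45 at 57.0, C05H8.3 opposite to ckk-1 at 53.7, Y73B6A.14 in Y73B6A.1 at 50.3 and T19C4.12 in gpa-1 at 31.7 in the pooled list. The fifth, F25H2.14 in the translation-associated gene tct-1, had 55.7 and none of the motifs, and begins 25 bp into its intron. The lowest signal value of the optimal list was 59.97, so F54F11.6 and Y37E3.20, on either side of the limit, differed by little.

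ZK994.7 and Y55F3BR.9 departed from the rest of the class. ZK994.7, in intron 17 of the peroxidasin gene pxn-1 and on its strand, had the second highest peak of the optimal list, at 9368, with 5220 in replicate 1 and 4198 in replicate 2, where it was the highest peak. Its summit lay 9 bp before the snoRNA, and its motif began 80 bp before the start instead of about 58 bp. It was the only hosted gene with the motif in exact form and TATAA within 40 bases after it, where TATAA begins at base 24. None of the 17 free-standing snoRNA genes with the motif had TATAA there. Among the 30 snRNA genes with the motif 3 had it, also at base 24, and these were Y17G9A.85, Y17G9A.90 and T08B6.62, named after their values were seen. All 3 contain ACAGAGA, a conserved stretch of U6, and their signal values were 2873, 639 and 3006, against a highest value of 108 at the 10 bound snRNA genes with the motif and no TATAA. In these 3 the motif began 67 bp before the start, not 80 bp. Of the 22 snRNA genes with that stretch, the other 19 lacked the motif in this exact form, and 13 of them were bound, at signal values up to 6175. The leader of ZK994.7 thus shares the motif, TATAA and their spacing with 3 snRNA genes, a minority of those with the U6 stretch.

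Y55F3BR.9, opposite to Y55F3BR.2, had 1881 in the optimal list, 1183 in replicate 1 and 705 in replicate 2, without TATAA. Its summit lay 122 bp after the snoRNA start and past the end of the 78 bp gene, so it is less closely tied to the snoRNA by position. Across all 18 genes, the value of ZK994.7 therefore stood alone in being high with a summit at the snoRNA start.

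**Figure D2:**
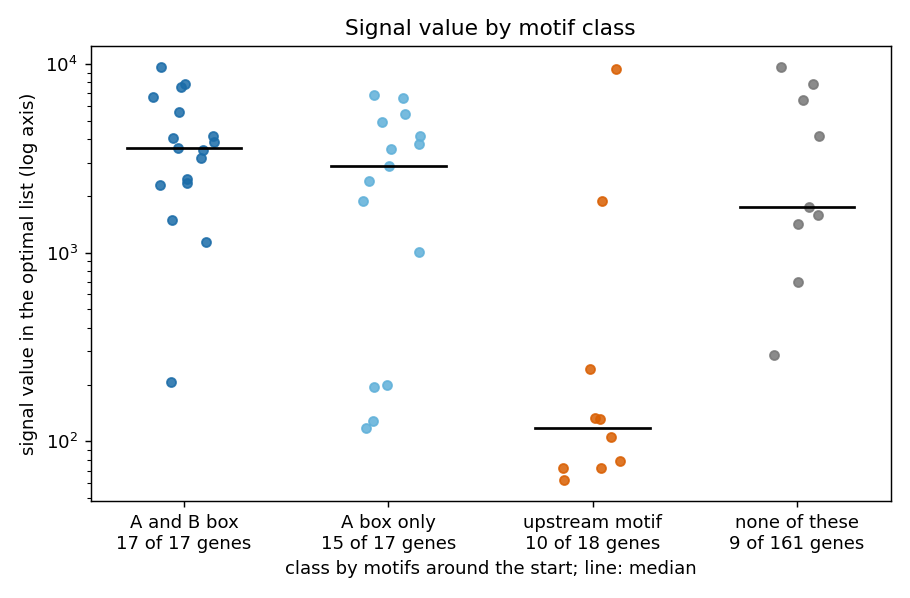
The y axis is the signal value in the optimal list on a log axis, each point is a hosted snoRNA gene with an optimal summit, and black lines are class medians. The class counts give bound genes of all hosted genes in the class. The medians are 3604 for an A and B box, 2862 for an A box only, 118 for the upstream motif and 1742 for none of these, and ZK994.7 is the orange point at 9368.

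The other 161 hosted genes had none of these arrangements in exact form, and 9 of them were bound. That share, 5.59%, lies near the 4.27% of all nuclear genes. In the pooled list 45 of the 161 had a summit (27.95%), a share near that of all nuclear genes. T04A8.17, opposite to ppat-1, was the highest of the 9 apart from C51F7.4, at 7863 in the optimal list, 4539 in replicate 1 and 3342 in replicate 2. With 2 mismatches allowed, its leader and that of D1046.6 (4154, 2491 and 1662, in cfim-2) held a box pair, and F46F11.12 had one with a single mismatch. In Y77E11A.21, opposite to Y77E11A.12, with 1588, 923 and 665, an exact pair began 4 bp before the summit, inside the snoRNA gene.

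B0334.12, opposite to the potassium channel gene twk-5, had 6462, 3743 and 2756, but its summit lay 153 bp after the snoRNA start and beyond its 3′ end. There an exact pair lay on the strand opposite to the snoRNA, with 44 bp between the box starts. W05B2.9, opposite to the dynein gene dhc-4, had 286, 153 and 140, and a pair with 1 mismatch lay on the other strand from the snoRNA. Its own leader holds the upstream motif with 1 mismatch, followed by TATAA at the same distance as in ZK994.7. The upstream motif was searched in exact form only, so near matches to it were not counted in other genes. ZK185.9, opposite to ZK185.2, with 1742, 1069 and 671, and JC8.15 in tag-115 had no pair within 100 bp of the summit on either strand. Together with Y77E11A.21, these were the 5 bound genes with neither a box pair, mismatches allowed, nor an exact upstream motif before the snoRNA. Genes whose summit another snoRNA gene shared were left out of this count.

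Bound and other hosted genes differed in where they sat in the intron. The snoRNA had an intron position in at least 1 host transcript for 176 of the 213 genes. Among the 39 that begin within 39 bp of the intron edge on their upstream side, none was bound, and among the 16 that begin at 40 to 63 bp only B0334.12 was. The share over all nuclear genes was 4.27%, so 0 of 39 and 1 of 16 lie near the background. The counts were 9 of 13 at 64 to 99 bp, 17 of 28 from 100 bp to under 200 bp, 16 of 32 from there to under 500 bp and 7 of 48 at 500 bp or more. The A box of the leaders begins a median of 58 bp before the snoRNA, and in a gene nearer to the edge than that a box at this place would fall in the exon. C06A1.8 and F55F1.11, which begin 33 and 23 bp from the edge and were named after their values were seen, both lack an optimal summit. C06A1.8 has a near-exact pair whose A box lies beyond the edge and whose B box does not, and F55F1.11 an exact A box beyond the edge. These bins were set after the values were seen, and whether the intron room before a snoRNA bears on binding was not tested.

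**Figure D3:**
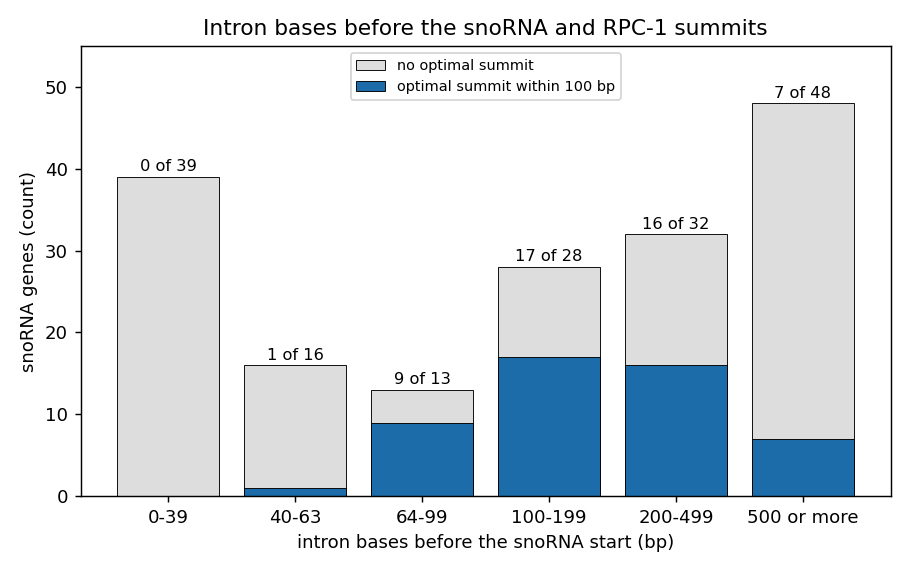
Bars count hosted snoRNA genes with an intron position, 176 in all, by the number of intron bases before the snoRNA start on its own strand. The blue part has an optimal summit within 100 bp and the grey part has none. None of 39 genes within 39 bp of the edge was bound, against 9 of 13 at 64 to 99 bp, beside 4.27% of all nuclear genes.

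Ribosomal protein genes hosted 23 of the snoRNA genes, in 15 hosts, all in introns and on the host strand. None of the 23 was bound, beside 4.27% of all nuclear genes, so with 23 genes a count of 0 lies near the background. They begin at a median of 29 bp into the intron, with a range of 6 to 72 bp, as shown above for F54E7.10. In the pooled list 7 of the 23 had a summit (30.4%), with signal values from 7.75 to 29.6, beside 24.4% of all nuclear genes. F54E7.10 had the highest of them, at 29.6 in the pooled list, 11.3 in replicate 1 and 13.3 in replicate 2. This host group was formed after the values were seen.

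By strand, 15 of 33 snoRNA genes opposite to every host were bound (45.5%), and 36 of 180 on the host strand, beside 4.27% of all nuclear genes. Among genes in an intron of every transcript the counts were 15 of 28 opposite and 33 of 143 on the host strand. All 53 same-strand genes within 63 bp of the edge were without an optimal summit, so the strand counts and the intron positions overlap, and their separate parts were not tested. By place, 48 of 171 genes in an intron of every transcript were bound, 1 of 19 that overlap a coding exon by at least 1 base, 0 of 18 that overlap only exons outside the coding sequence and 2 of 5 that are intronic or exonic by transcript. The 1 gene was C51F7.4, with 94 of its 95 bases in an intron, and none of the 12 genes of that class that lie wholly in exons was bound. The counts of 1 of 19, 0 of 18 and none of 12 lie near the 4.27% of all nuclear genes. The bound genes had 50 different hosts, and only frm-7 held more than 1 of them.

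By length, 27 of 61 genes of at most 100 bp were bound and 24 of 152 longer ones, beside 4.27% of all nuclear genes. By chromosome, the counts were 10 of 44 on chromosome I, 11 of 43 on II, 6 of 43 on III, 9 of 36 on IV, 15 of 38 on V and 0 of 9 on X. The highest gene of each was ZK484.9 on I, C04G6.12 on II, T04A8.17 on III and F38E11.14 on IV, and on V the pair C51F7.3 and C51F7.4. With 9 hosted genes on X, a count of 0 says little about that chromosome.

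Other annotated genes overlapped some of these summits. In 11 of the 51 bound genes the summit lay nearer to another small or non-coding RNA gene than to the snoRNA. In 9 of these the other gene was an unnamed ncRNA, and the 9 were ZK484.9, T08B2.13, C05D2.15, D1046.6, F38E11.14, C10C6.8, K11C4.6, T03F7.8 and F55A11.10. For F19H8.6 it was the tRNA pseudogene F19H8.t1, which contains the summit, and for C51F7.3 it was C51F7.4. The summits of T08B2.13 and D1046.6 also lay in annotated tRNA pseudogenes, T08B2.t1 and D1046.t1. All 3 pseudogenes are on the strand of the snoRNA and span its leader, which in T08B2.13 holds both boxes exactly, in F19H8.6 an exact A box and in D1046.6 a pair with 2 mismatches. In 46 of the 51 bound genes the summit lay over 1000 bp from any tRNA gene, tRNA pseudogene or other Pol III gene searched. Genes for U6 snRNA were not in that search. This distance is beyond the median peak width of 863 bp at hosted genes.

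The replicates ranked the hosted genes alike. All 51 bound genes had a summit in both replicate lists, and Spearman's rho of their signal values was 0.994 over these 51 genes. It was also 0.994 over the 65 hosted genes in both lists. The genes share their library and an unnamed second file used for both replicates, and the optimal list was chosen for agreement, so rho is given as a description. Summit positions were less exact than ranks. They differed between the replicates by a median of 8 bp, by at most 10 bp at 29 of 51 genes and by 149 bp at most. Y37E3.20 had that largest gap, with its summit 94 bp after the start in replicate 1 and 55 bp before it in replicate 2.

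**Figure D4:**
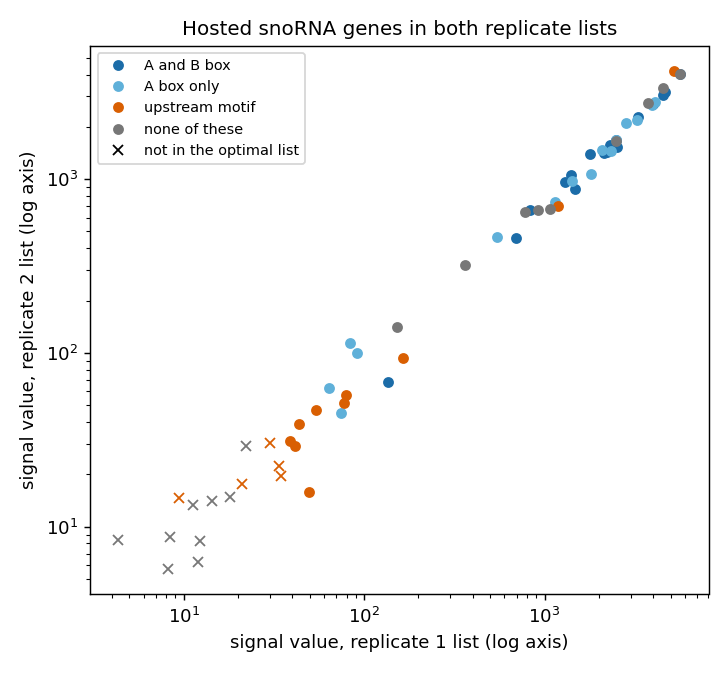
Signal values of hosted snoRNA genes in the replicate 1 list (x) and the replicate 2 list (y), both on log axes, for the 65 genes with a summit in both. Dots are the 51 genes in the optimal list and crosses the other 14, coloured by motif class. The genes lie along 1 line that ends at the upper right with C51F7.3, C51F7.4 and ZK994.7.

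The proteins of snoRNA particles were looked up beside their RNAs. None of 8 genes had an optimal summit within 500 bp of an annotated transcript start, a place where 1.73% of all protein-coding genes had one, so a count of 0 of 8 does not set them apart. These were fib-1 (the methylase of box C/D particles), nol-56, nol-58 and snu-13 (box C/D core proteins), dkc-1 (the pseudouridine synthase of box H/ACA particles), garr-1, Y48A6B.3 and nola-3 (box H/ACA core proteins). All 8 had weak summits by the same rule in the pooled list, as had 31.5% of all protein-coding genes, from 10.8 at nola-3 to 52.7 at fib-1, below the lowest signal value of the optimal list. The box C/D gene nol-56 is also the host with the most snoRNA genes, 4, and none of its guests was bound. Beside a summit within 100 bp at 4.27% of all nuclear genes, this says little with 4 genes.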

How the data were processed

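Peak lists in narrowPeak form on ce11 were used as the authors deposited them, and lists on ce10 were not used. Per the deposited descriptions, the 2 replicate lists came from alignments of 1 replicate each plus a second file common to them, the pooled list drew on both sets of alignments, and the optimal list was derived from these 3. The signal value is a score of the authors' peak caller. The aligner, the caller, the versions and the agreement threshold were not given in the sources used here. In the description field the target reads PRC-1, and elsewhere rpc-1, the name used here.

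Genes, hosts and sequences came from the RefSeq annotation and genome of WBcel235, the assembly named ce11, and all peaks fell within its chromosome lengths. A main host was the shortest span, hosts on the same strand first. Summit distance was taken to the gene body, with a limit of 100 bp. Introns came from each host transcript, and the transcript with the most exons gave the intron position. Python 3.11.15 with pandas 2.3.3 and NumPy 2.4.6 was used, and the summit and motif searches were checked on simulated data. No test was made, since there was 1 group of 2 libraries, and genes were described by counts and medians beside all nuclear genes.

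The members, gene lists and alternatives were chosen with earlier results of these data known. Genes named in the text are the 15 of highest signal value, the highest of each chromosome, all bound genes opposite to every host, the 5 lowest, the 5 highest in the pooled list without an optimal summit, and those whose summit lay nearer to another small RNA gene. Others are said to be named after their values were seen, apart from Y38F2AR.14, R166.7 and F46F11.12, given only to place a motif, and hosts and neighbouring genes. Alternatives changed the summit distance, the list, the host rule and the motif.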

Additional observations from a re-analysis of the deposited data

How the results depend on the processing

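The count of bound hosted genes was 51 and lay between 36 and 54 under the alternatives of summit distance, peak overlap, the upper part of the optimal list by signal value, host strand, intron place and nearby Pol III genes. It was 92 in the pooled list. Taking 1 replicate at a time, as its 2123 strongest peaks, gave 51 to 52. The median signal value of bound genes was 111 in the pooled list, which holds many weak peaks, and 972 to 1417 with 1 replicate left out, where the lists have lower scales of their own. The median offset of -29 bp turned to 2.5 bp in the pooled list and to 1.5 bp with summits within 50 bp, a limit that by construction drops genes whose summit lies farther upstream. It was -27 to -20.5 bp with 1 replicate left out. The 95% interval of the main median was -41 to 1 bp, taken over the 51 bound genes and not over libraries. The median was -31.5 bp at the 36 genes with signal values above 1000, of which 25 had an upstream summit. At the 14 genes under 300 it was 30.5 bp, so the median offset does not describe every hosted gene. The count of bound genes with a box pair was 17 and became 29 with at most 1 mismatch and 34 with at most 2, in a narrower frame (A box 80 to 40 bp before the start, 30 to 60 bp between box starts). Exact boxes in that frame gave 16, and at most 1 mismatch in the original frame 30, of 34 hosted genes with such a pair. All of these were chosen after seeing the data. Genes starting within 40 bp of the intron edge had no optimal summit, a count near the background as said above. Of these genes 13 had a pooled summit, and 0 to 1 had a summit with 1 replicate left out. Of the other alternatives for these results, 52 stayed within 1.5 times the count or within the 95% interval of the median. With hosts limited to the same strand no opposite-strand count exists. No paired analysis was possible because there was only 1 group. The ranks of the named bound genes were within 1.5 times in 57 of 61 cases with a replicate left out. Depth is unknown, so weak summits near the limit of the optimal list, such as those of genes with the upstream motif, could move in or out of it.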
